A study of Mus musculus with 2 samples.

Results

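The regions described here are the tall and broad part of a map of NELF-B on mouse chromosomes. They were selected by 2 measured values of each region in the deposited list, a summit height of at least 93 and a width of at least 1.69 kb. Of 9095 regions, 911 were tall by that threshold (10.0%), 910 were broad (10.0%) and 228 were both. These 228 regions are 2.51% of the list. They make up 25% of the tall regions and about the same share of the broad ones, and they lie on all 20 chromosomes that carry any region.

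The study measured NELF-B by chromatin immunoprecipitation and sequencing (ChIP-seq) in mouse embryonic fibroblasts, which are connective tissue cells grown out of embryos. The cells were f/- at Nelf-b, as the labels write the genotype, on a background mixed from the strains 129/SvJ, C57BL/6 and FVB. They grew asynchronously in 10% serum and were fixed in 1% formaldehyde for 15 min. A purified polyclonal antibody against NELF-B was used for 1 library, and 1 input library came from the same cell type with no antibody. The number of embryos is not stated, and the files used here hold values of the NELF-B library only. With no replicate, no value below has a replicate error and no p-value is given. The 95% intervals are exact Clopper-Pearson intervals for shares and Newcombe intervals for differences between shares. They cover counting error over the regions of 1 library and treat regions as independent of each other, which neighbouring regions are not.

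NELF-B, which the track headers call Cobra1, belongs to the negative elongation factor complex (NELF). The complex acts with DSIF to hold RNA polymerase II a short way downstream of the start of a gene, and the kinase P-TEFb releases the polymerase into productive elongation. NELF also takes part in the 3′ end processing of replication-dependent histone transcripts, which lack a poly(A) tail. A ChIP-seq interval reports how far along the chromosome fragments pile up, and its summit the place where they pile up most. The width of an interval also depends on the lengths of the fragments, which were sheared to 300 to 500 bp and selected at 175 to 225 bp for the library.

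Heights are scores in the authors' own unit and depth is unknown, so they are compared only within this list. Positions are printed as the file has them. Its genome build is not named in the labels or headers, and the list runs past the last gene of the GRCm38.p6 table on 7 chromosomes, so no region is assigned to a gene and no sequence is printed. Each interval has 1 summit in the file, so a second maximum inside a broad interval would not be seen.

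Because height and width chose the members, both are given as a description. The 228 heights ran from 93 to 730, with a median of 143 and quartiles of 112 and 218.5. Their widths ran from 1.69 kb to 6113 bp and had a median of 2097.5 bp, with quartiles at 1868 and 2461 bp. The other 683 tall regions had a median height of 115 and a median width of 1252 bp. The members together spanned 508 kb, or 4.62% of the length covered by the list. Widths of at least 2 kb were reached by 139 members and widths of at least 3 kb by 14. Heights of at least 200 were reached by 66 members. Heights of at least 300 were reached by 27 members and by 15 of the other tall regions.

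The thresholds cut through a continuous range. On the height side, the lowest members were a region on chromosome 17 from 21081508 to 21083255 (height 93) and 4 regions of height 94 on chromosomes 3, 5, 9 and 10. Just under the threshold lay broad regions of height 92 on chromosomes 8, 9 and 11. On the width side, the narrowest members, on chromosomes 2, 13 and 15, were 1 to 2 bp wider than the widest regions left out, on chromosomes 8 and 19. The share of regions at least 1.69 kb wide was 1.72% for heights of 12 to 29 and 15.4% for heights of 65 to 92. It was 15.2% for heights of 93 to 109, 21.7% for 110 to 149, 31.1% for 150 to 199, 50.6% for 200 to 299 and 64.3% for 300 to 730. Without 2 stretches on chromosomes 13 and 3, described below, the last 2 shares were 45.7% and 48.3% (14 of 29).

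**Figure D1:**
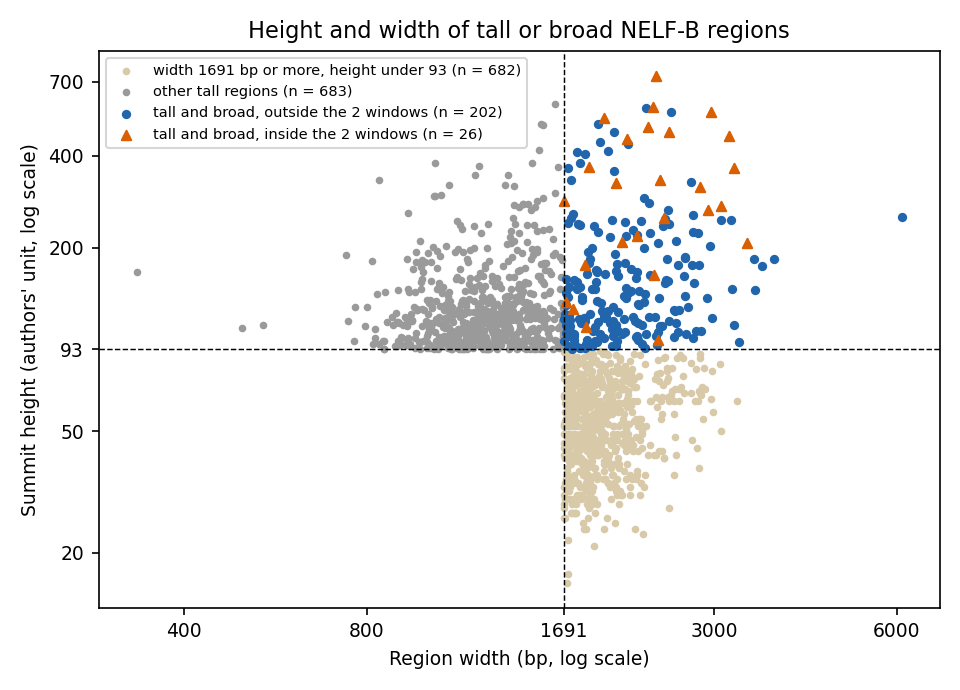
Summit height in the authors' unit against region width in bp, both on log scales, for the 911 tall and the 910 broad regions, with the thresholds of 93 and 1.69 kb as dashed lines. Triangles mark the 26 members inside the windows on chromosomes 13 and 3, and the rightmost point is the 6113 bp region on chromosome 17.

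The 10 tallest members lay on 6 chromosomes, with heights of 477 to 730 and widths of 1925 to 2967 bp. Of these 10, 6 lay in 2 stretches, chromosome 13 from 21.7 to 24 Mb and chromosome 3 from 95.95 to 96.4 Mb, named the windows below. The tallest of all lay on chromosome 3 between 96071975 and 96074376, reached 730 and was 2402 bp wide. The tallest member outside the windows lay on chromosome 11 between 69571179 and 69573496, reached 575 and was 2318 bp wide. On chromosome 2 the region from 166887683 to 166889728 reached 477 with a width of 2046 bp. The tallest member of a chromosome was lowest on chromosome 18, where the single member, from 85119837 to 85121870, had a height of 108.

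Of the 10 widest members, 8 lay outside the windows, and the heights of the 10 ran from 98 to 365. The widest, on chromosome 17 from 39979801 to 39985913, spanned 6113 bp with a height of 253. Whether this region lies on repeated sequence was not tested, since no genome of the file's build was at hand and no input values were used. The next was a region of 3768 bp on chromosome 10 from 39976432 to 39980199, which reached a height of 184 and had its summit at 55.7% of the width, near the middle. A region of 3601 bp on chromosome 5, from 115938933 to 115942533, had a height of 174 and its summit at 20.8%. On chromosome 12 the region from 55796302 to 55799808 spanned 3507 bp with a height of 145, and the nearest other tall region was 14849 kb away. On chromosome 8 the region from 129117664 to 129120954 spanned 3291 bp although its height was only 98. No region had both a place among the 10 widest and a place among the 10 tallest.

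Summits of tall and broad regions lay off-centre more often than those of the other tall regions. The place of the summit was taken as a percentage of the width, counted from the start. The selection did not use the position of the summit, but it did use the width by which that position is divided. The shares below, their difference and its interval are therefore not independent of the selection. How far the width cut sets them was not tested. The median place was 50.1% in the members, with quartiles of 34.0% and 63.0%. In the other tall regions it was 49.0%, with quartiles of 40.0% and 58.4%. A summit in the first or last 25% of the width was found in 38 of 228 members (16.7%, 95% interval 12.1 to 22.2). Among the other tall regions it was found in 16 of 683 (2.34%, 1.34 to 3.78), and in the whole list in 538 of 9095 (5.92%). The difference between the first 2 shares was 14.3 percentage points (9.82 to 19.8). Outside the windows it was 12.6 points (8.17 to 18.3).

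Off-centre summits were also common in broad regions that were not tall, and their share was higher in wider members. Broad regions under the height threshold had them in 165 of 682 cases (24.2%, 21.0 to 27.6). The members' share minus this one was -7.53 points (-12.96 to -1.33). Within the members, the share was 10.1% at widths up to 1999 bp (9 of 89, 4.73 to 18.3). It was 17.0% at 2000 to 2499 bp (15 of 88, 9.87 to 26.6) and 27.5% at 2500 bp and more (14 of 51, 15.9 to 41.7). Among the other tall regions it was 1.74% below 1100 bp, 2.19% at 1100 to 1399 bp and 3.14% at 1400 bp and above. By height, the share among members was 17.7% at heights of 93 to 150 (22 of 124) and 15.4% above 150 (16 of 104). Outside the windows these shares were 17.5% (21 of 120, 11.2 to 25.5) and 11.0% (9 of 82, 5.14 to 19.8).

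In bp the summits of the members were no closer to an edge. The distance from the summit to the nearer edge had a median of 746 bp in members, with quartiles of 563 and 934 bp. In the other tall regions it was 498 bp, with quartiles of 440 and 546 bp. The distance to the farther edge had medians of 1385 and 745 bp. The added width therefore lay on both sides of the summit, with more of it on the far side, and since the members were chosen for width these distances are a description.

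Over all members, the summits showed no lean toward either end of the region. The summit lay nearer the start than the end in 114 of 228 members (50%, 43.3 to 56.7). Of the 38 members with a summit in the outer 25%, 22 had it nearer the start (57.9%, 40.8 to 73.7). That interval is too wide to tell whether off-centre summits lean to the start. The strand of the genes around these regions is not known here.

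The member with its summit nearest an edge was the widest one, on chromosome 17, where the summit at 39980256 lay at 7.46% of the width, 456 bp from the left edge and 5657 bp from the right. Without this region the difference in off-centre summits from the other tall regions was 14.0 points (9.49 to 19.4). On chromosome 13 the region from 22127247 to 22128999 had its summit at 10.2%, 178 bp from the left edge. On chromosome 6 the region from 129130347 to 129133116, with a height of 225, had it at 11.2%. On chromosome 13 the region from 23523184 to 23525294 had it at 12.9%, and on chromosome 11 the region from 18918518 to 18921138 at 15.1%. All 5 of these summits lay on the start side. The tallest member with a summit in the outer 25% lay on chromosome 13 between 21870575 and 21872948, reached 576 and had its summit at 77.6%.

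**Figure D2:**
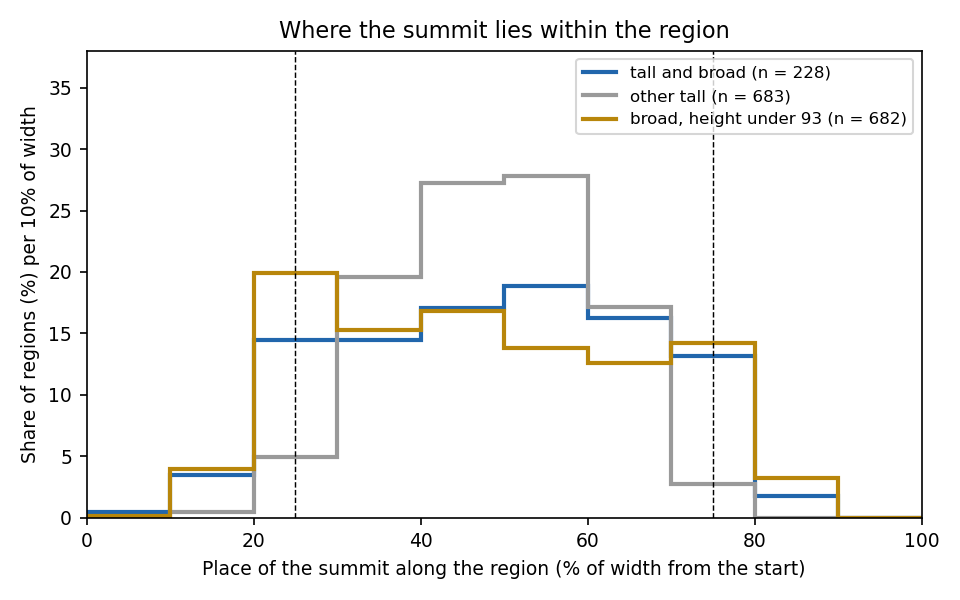
Share of regions per 10% of width (y axis, in percent) against the place of the summit from start to end (x axis, in percent of width), for 228 tall and broad, 683 other tall and 682 broad regions under a height of 93. Dashed lines mark 25% and 75%; the outer parts hold 16.7% of the tall and broad, 2.34% of the other tall and 24.2% of the broad, lower regions.

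The members were spread over the genome much as the tall regions were. Chromosome 11 held 26 of them, chromosome 8 held 23 and chromosome 6 held 20, and these were also the chromosomes with the most tall regions (112, 100 and 83). The share of tall regions that were broad was 23.2% on chromosome 11 (15.8 to 32.1), 23.0% on chromosome 8 (15.2 to 32.5) and 24.1% on chromosome 6 (15.4 to 34.7), close to the 25% of all chromosomes together. It was 35.9% on chromosome 15 (14 of 39, 21.2 to 52.8), 14.0% on chromosome 7 (7 of 50, 5.82 to 26.7) and 6.25% on chromosome 18 (1 of 16, 0.158 to 30.2). On X it was 37.5%, from 3 of 8 tall regions (8.52 to 75.5). Of the intervals of the 20 chromosomes, only that of chromosome 13 lay wholly above 25%.

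On chromosome 13 all tall and broad regions lay inside the window of 2300 kb, though not evenly along it. Chains of 4 and 14 members, described below, lay from 21825822 to 21880125 and from 23523184 to 23856683. On the whole chromosome 19 of 40 tall regions were broad (47.5%, 31.5 to 63.9), against 209 of 871 on the other chromosomes (24.0%). All 19 lay inside the window of that chromosome. Of the 19 tall regions of chromosome 13 outside it, 0 were broad, with an exact interval of 0 to 17.6% and a limit of 15.8% from the rule of 3 counts. The difference from the other chromosomes was 23.5 points (8.65 to 38.8) with the windows and -23.4 points (-26.3 to -6.37) without them. On chromosome 3, 17 of 48 tall regions were broad (35.4%), and 10 of 40 outside the window (25%). Chromosome 13 and both windows were singled out with earlier results of these data known.

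**Figure D3:**
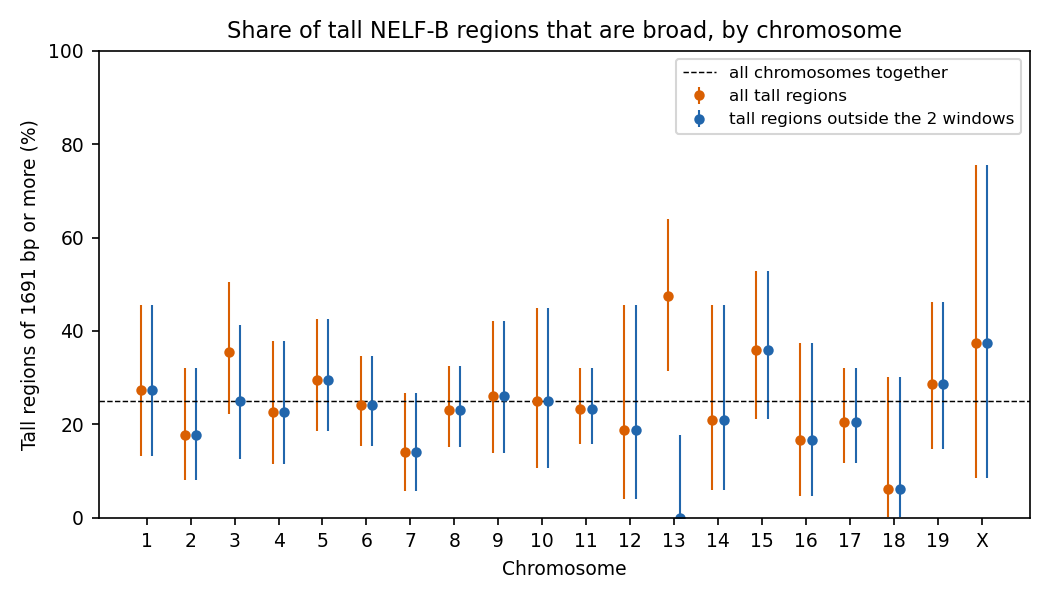
Share of tall regions that are at least 1.69 kb wide (y axis, in percent) on each chromosome (x axis), for all tall regions and for those outside the 2 windows, with exact 95% intervals. The dashed line is 25%; chromosome 13 falls from 47.5% to 0% when its window is left out.

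Members lay inside the windows more often than other regions did, although most lay outside. The windows held 26 members, 19 on chromosome 13 and 7 on chromosome 3, and left 202 of 228 outside (88.6%, 83.7 to 92.4). Of the other tall regions 680 of 683 lay outside (99.6%), and of the whole list 9049 of 9095 (99.5%). The share outside was -11.0 points (-15.8 to -7.36) in members minus other tall regions. The window on chromosome 13 had 29 regions in all, of which 21 were tall. The window on chromosome 3 had 17, of which 8 were tall. Inside both windows, only 3 of the 29 tall regions were narrower than 1.69 kb. Among members above a height of 150 the share outside was 78.8% (82 of 104), and among those of 93 to 150 it was 96.8% (120 of 124). The gene table of assembly GRCm38.p6 was not used to name genes in these windows, since the file's coordinates are not known to be of that build.

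Tall and broad regions more often had another tall region nearby. Distances were taken from summit to summit, because a gap between edges shrinks as regions widen, and both classes were measured against the same 911 tall regions. Another tall region lay within 100 kb of 109 of the 228 members (47.8%, 41.2 to 54.5). The same held for 215 of the other 683 tall regions (31.5%, 28.0 to 35.1) and for 1844 of all 9095 regions (20.3%). The difference between the tall classes was 16.3 points (9.0 to 23.6). Outside the windows the shares were 41.6% and 31.2%, a difference of 10.4 points (2.92 to 18.1).

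The difference was wider among the taller regions. Above a height of 150, a tall neighbour within 100 kb was present for 67 of 104 members (64.4%, 54.4 to 73.6) and for 44 of 134 other tall regions (32.8%, 25 to 41.5). The difference was 31.6 points (18.9 to 42.9), and 22.5 points (8.94 to 35.2) outside the windows. At heights of 93 to 150 the shares were 33.9% (42 of 124) and 31.1% (171 of 549), and the interval of the difference ran from -5.98 to 12.2 points. Among the other tall regions the share was much the same below and above 150. Above 150 the members were still the taller class, with a median height of 226.5 against 191, or 217.5 against 192 outside the windows. Values above 150, here and below, therefore do not separate width from height. Whether the difference in tall neighbours changes with height was not itself tested.

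Any other region, tall or not, lay within 10 kb of 67 members (29.4%, 23.6 to 35.8) and of 121 other tall regions (17.7%, 14.9 to 20.8). In the whole list it was 1389 of 9095 (15.3%). The difference between the tall classes was 11.7 points (5.36 to 18.4). Above a height of 150 the shares were 45.2% (47 of 104) and 19.4% (26 of 134), a difference of 25.8 points (13.9 to 37.0). That difference was 21.9 points (9.34 to 34.2) outside the windows. At heights of 93 to 150 the shares were 16.1% and 17.3%, with an interval of the difference from -7.58 to 6.85 points.

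**Figure D4:**
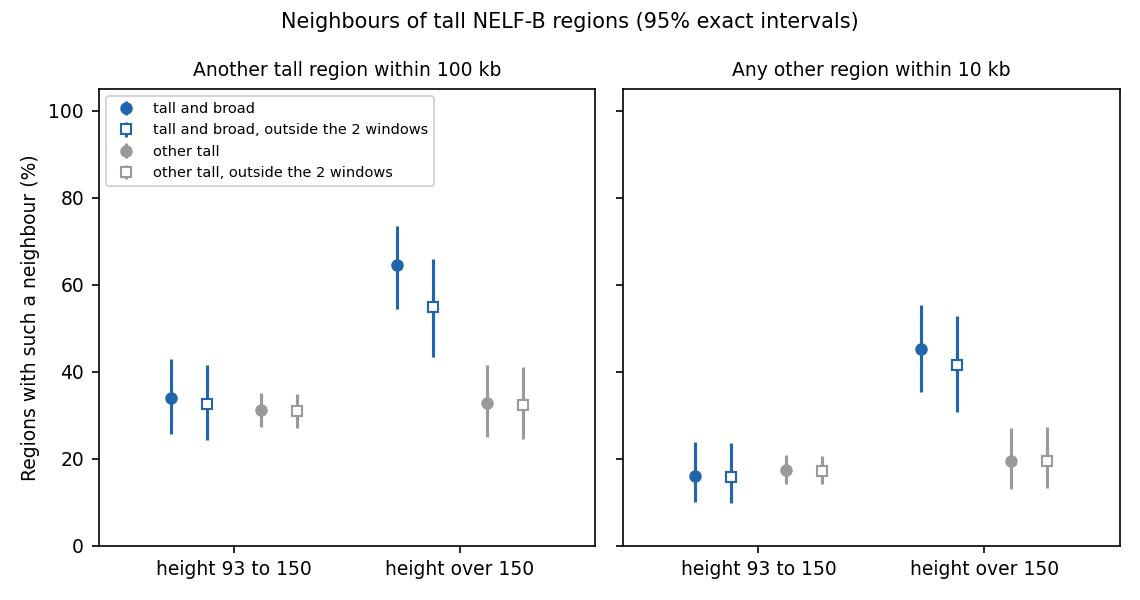
Share of regions (y axis, in percent, with exact 95% intervals) that have another tall region within 100 kb (left) or any region within 10 kb (right), by height range (x axis) and class; open squares leave out regions in the 2 windows. Above a height of 150, tall and broad regions reach 64.4% and 45.2%, and the other tall regions 32.8% and 19.4%.

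The surroundings of the members were also denser at a larger scale. A median of 12 other regions lay within 500 kb of a member, with quartiles of 7 and 17.25, against 8 around the other tall regions, with quartiles of 5 and 15. Outside the windows the medians were 10 and 8, and over the whole list 7. At heights of 93 to 150 they were 9 for members and 8 for other tall regions, and above 150 they were 14.5 and 9.5. Very close neighbours were rare, with another summit within 3 kb for 3 of 228 members (1.32%, 0.272 to 3.8) and 7 of 683 other tall regions (1.02%). The nearest region within 10 kb had a median height of 66 beside a member and 53 beside another tall region. Outside the windows these medians were 57 and 52.5.

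A tall neighbour of a member was more often broad than that of another tall region, and at 100 kb the size of this difference rested on the windows. Among members with a tall neighbour within 100 kb, that neighbour was itself broad for 45 of 109 (41.3%, 31.9 to 51.1). Among the other tall regions it was broad for 58 of 215 (27.0%, 21.2 to 33.4), a difference of 14.3 points (3.49 to 25.2). With the regions of the windows left out, also as neighbours, the shares were 27.4% and 25.6%, and the difference was 1.79 points (-8.69 to 13.5). It was 1.44 points (-9.05 to 13.1) when window regions stayed possible neighbours, as in the other values given outside the windows. Of the 45 members with a broad neighbour, 22 lay inside the windows and 23 outside. At heights of 93 to 150 the direction turned, with a broad neighbour for 7 of 42 members (16.7%) and 44 of 171 other tall regions (25.7%), a difference of -9.06 points (-20.0 to 6.10). For members and other tall regions of these heights outside the windows it was -14.6 points (-24.0 to -0.022). Above 150 the shares were 56.7% (38 of 67) and 31.8% (14 of 44), a difference of 24.9 points (5.95 to 41.2), and 12 points (-7.93 to 30.6) outside the windows. Within 10 kb the members with a tall neighbour had a broad one in 21 of 25 cases and the other tall regions in 4 of 25, a difference of 68 points (41.6 to 81.6). Outside the windows these counts were 10 of 13 and 3 of 24, a difference of 64.4 points (31.5 to 81.4). At heights of 93 to 150 these last counts were 0 of 2 and 3 of 19, and above 150 they were 10 of 11 and 0 of 5. In such counts each pair of neighbouring members enters once from each side. The intervals take the counts as independent and are therefore too narrow.

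Outside the windows, the members within 10 kb of each other formed 5 pairs. On chromosome 8, regions of heights 218 and 357 spanned 96695131 to 96704322, with summits 6.48 kb apart. On chromosome 9, regions of heights 187 and 175 and widths of 2682 and 2612 bp lay between 65042516 and 65050280, 5.28 kb apart. On chromosome 11, regions of heights 328 and 184 lay between 87235540 and 87242294, with summits 3.81 kb apart. Also on chromosome 11, regions of heights 240 and 235 lay between 101503227 and 101507085 with only 169 bp between their edges. On chromosome 19, regions of heights 153 and 438 lay between 8786334 and 8799125, 9.66 kb apart. All 10 of these regions were taller than 150.

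Joining members whose consecutive summits were at most 100 kb apart gave 14 chains of 2 or more regions with 51 members (22.4%), and left 177 members single. Outside the windows there were 27 members in 11 chains (13.4% of 202). Of the 14 chains, 7 held at least 3 members. At 50 kb there were 13 chains with 43 members (18.9%). At 1 Mb the chains held 102 members (44.7%), or 37.6% of those outside the windows. A share within a class depends on how many regions the class has, so these values are not set beside those of the other tall regions.

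The longest chain had 14 members over 333.5 kb on chromosome 13, from 23523184 to 23856683, with heights of 207 to 531 and widths of up to 3399 bp. It contained 15 regions of the list, so all but 1 of its regions were members. Its summits were 3.49 to 99.5 kb apart, with a median step of 13.4 kb. Its first member was joined by the step of 99.5 kb, and with a limit of 50 kb the longest chain of all had 7 members. A second chain on chromosome 13, from 21825822 to 21880125, had 4 members of heights 163, 265, 576 and 100, and no other region among them. The chain of 6 members on chromosome 3, from 96000714 to 96133836, had heights of 110, 315, 175, 556, 730 and 133. Some neighbouring members thus differed several-fold in height within that chain, while others, such as those of 556 and 730, differed less.

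Outside the windows, the longest chain had 4 members on chromosome 11 from 101487611 to 101522084, with heights of 184, 240, 235 and 246 and widths of 3491, 1789, 1901 and 3196 bp. All 4 regions of the list in these 34.5 kb were members. On chromosome 1, 3 members between 72272738 and 72303570 had heights of 178, 144 and 157. On chromosome 15, 3 members between 98763685 and 98861532 had heights of 176, 251 and 258, with 5 regions of the list in the same span. On chromosome 19, 3 members between 8786334 and 8895248 had heights of 153, 438 and 97 among 10 regions, the lowest of which had a height of 20.

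**Figure D5:**
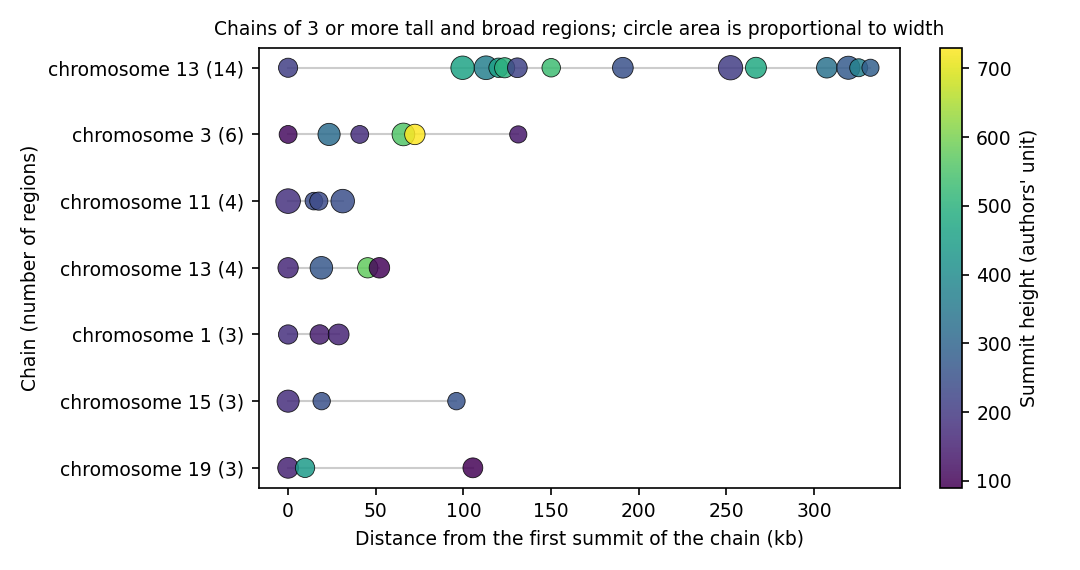
The 7 chains of 3 or more tall and broad regions, each on a line named by its chromosome and number of regions, against the distance in kb from the first summit (x axis). Circle area is proportional to width and colour gives height in the authors' unit; the 14 regions of the longest chain reach heights of 207 to 531.

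At the other end, 11 members had no other region within 200 kb (4.82%, 2.43 to 8.47), against 50 of the other tall regions (7.32%, 5.48 to 9.54). In the whole list it was 953 of 9095 (10.5%). The difference between the tall classes was -2.50 points, with an interval from -5.54 to 1.50. These 11 lay on 8 chromosomes, outside the windows, with heights of 94 to 253 and a median of 124. The most isolated, on chromosome 3 between 113332150 and 113334037, reached 146 and had its nearest region 1398 kb away. The widest region, on chromosome 17, was next, at 1037 kb. A region on chromosome 11 from 18918518 to 18921138, 2621 bp wide with a height of 125, stood 901 kb from the next. A region on chromosome 10 from 98723553 to 98726468, 2916 bp wide with its summit at 82.3% of the width, stood 348 kb from the next. No filter for repeated or blacklisted sequence could be applied here, and no input values were used, so their part in these isolated regions was not tested.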

How the data were processed

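The authors deposited 1 text file for the NELF-B library with 3 tracks of 9095 entries each, per the file headers a peak track, an interval track and a track of active regions. The height deposited with each summit is a score of the authors, whose unit neither headers nor labels define. All 9095 scores were whole numbers. MACS is named, without a version, in the submitters' processing notes. For the genome build, the aligner, the thresholds and any use of the input: not given in the sources used here. Depth is unknown, so no floor or interval that needs it is given.

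Summits were joined to intervals by file order, and each of the 9095 summits lay inside its interval. The last 2 tracks held identical intervals, so the third was not used further. Starts were raised by 1, and 9005 summits were multiples of 16 bp, which limits the summit places. SciPy 1.17.1 gave the intervals, and pandas 2.3.3, NumPy 2.4.6 and matplotlib 3.10.9 ran under Python 3.11.15, and the measures were checked on simulated layouts. Members had a height of at least 93 and a width (end minus start as deposited) of at least 1691 bp. The members, windows and comparisons were chosen with earlier results of these data known. Regions named are the 10 tallest, the 10 widest, the 5 with summits nearest an edge, chains of 3 or more, the tallest per chromosome and those nearest the thresholds. The close pairs and the isolated regions were singled out after their values were seen. No base sequence was printed, since no genome of the file's build was at hand.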

Additional observations from a re-analysis of the deposited data

How the results depend on the processing

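Over 7 results, 161 alternative settings were tried, of which 136 left the value inside its interval, 20 moved it out and 5 turned its sign. Of these settings, 87 were chosen after the data were seen, and 76 of them left out 1 autosome each. Differences are given in percentage points, members minus other tall regions. For off-centre summits the difference was 25.9 for the outer 33.3%, 0.439 for the outer 10%, 7.97 above a height of 150 without the windows, and -7.53 against broad regions under 93. Among off-centre summits alone, 57.9% lay nearer the start. For a tall neighbour within 100 kb it was 24.2 at heights of 120 or more, 2.72 at 93 to 150, 31.6 above 150, 7.30 within 10 kb, 5.30 within 1 Mb, and 24.5 against broad regions under 93. For a broad nearest neighbour it was 1.79 without the windows, 27.4 at heights of 120 or more, -9.06 at 93 to 150 and 68 within 10 kb. For any neighbour within 10 kb it was 20.1 at heights of 120 or more, -1.18 at 93 to 150, 25.8 above 150, and 21.9 above 150 without the windows. The share of members outside the windows was 83.6% at heights of 120 or more, 96.8% at 93 to 150 and 78.8% above 150. The excess of chromosome 13 was -23.4 without the windows, 8.62 at heights of 75 or more and -6.83 at 93 to 150. Fewer regions enter at higher thresholds by construction. The cause of the other shifts was not tested. Leaving out each chromosome in turn gave 12.6 to 15.1 for off-centre summits, 11.8 to 17.8 for tall neighbours, 4.10 to 19.7 for broad ones, lowest without chromosome 13, and 8.99 to 13.2 for any neighbour. No replicate could be left out, and no paired analysis was possible because each group has 1 library.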
